A study of Mus musculus with 4 samples.

Results

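The cells described here are Kit+ bone marrow progenitors that carried RNA of the IgE receptor gene Fcer1a and of Cpa3 and nearly lacked RNA of the basophil proteases Mcpt8 and Prss34. They were chosen from kept cells. A cell was kept with 1000 or more UMIs (unique molecular identifiers, each counting 1 captured RNA molecule), from 500 or more genes, of which no more than 10% were mitochondrial. A gated cell had at least 3 UMIs of Fcer1a, at least 3 of Cpa3 and fewer than 2 of Mcpt8 and Prss34 together. The gate held 2003 of 12081 kept cells of the Mll3/4SI library and 81 of 11891 of the control library, 2084 cells among 55216 kept cells in the whole series. These 4 genes chose the cells, so their values are given as a description.

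The study profiled single cells from the bone marrow of mice 10 weeks after transplantation, sorted as CD45.2+ and Kit+ with a 10x Genomics 5′ version 2 kit. The Kit+ groups were control (library wt), Mll3/4 deleted (library dKO) and Mll3/4SI (library dKI). A further library held control B220lo cells. Each group was 1 library, so no difference between groups has a replicate check and no test was made. MLL3 and MLL4, encoded by Kmt2c and Kmt2d, are enzymes that methylate histone H3 at enhancers. The labels do not expand SI, which is used below as the name of the Mll3/4SI library. Strain, age, the means of deletion and the number of mice per library are not given in the sources used here, and all groups share transplantation and the CD45.2 sort.

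Mast cells and basophils both bind IgE through the high-affinity receptor FcεRI, made of an IgE-binding α chain (Fcer1a), an amplifying β chain (Ms4a2) and a signalling γ chain (Fcer1g). Mast cells come from marrow progenitors that need the receptor Kit and the transcription factor GATA2, and they fill their granules with chymases, tryptases and carboxypeptidase A3 (Cpa3) after reaching tissue. Basophils mature in the marrow and make the proteases encoded by Mcpt8 and Prss34. In the mm10 mouse genome Fcer1a lies on the minus strand of chromosome 1, from 173221284 to 173227214, and Cpa3 on the minus strand of chromosome 3, from 20215620 to 20242181. Ms4a2, the FcεRI gene outside the gate that the results turn on, lies on the minus strand of chromosome 19, from 11615523 to 11623719.

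The SI library held 12345 barcodes and 166327773 UMIs and the control library 12205 barcodes and 163751605 UMIs. The median kept cell had 12349 UMIs in the SI library and 12199 in the control library. Gated cells had a median of 13032 UMIs (SI) and 11875 (control), and their UMIs summed to 30020545 and 1152066. The 2 libraries shared 214 cell barcodes, and none of these was gated in both. A doublet score of 0.25 or more was found in 184 gated SI cells (9.19%) against 4.13% of other kept SI cells, and in 10 of 81 gated control cells (12.3%) against 7.08% of the others. Main values include these cells, and values without them are given beside list counts that changed. The intervals below are 95% intervals that cover counting error only, not the spread between mice or libraries. Those of gene levels and their ratios treat UMIs as independent, so they also leave out the spread between cells.

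Gated cells made up 16.6% of kept SI cells (exact Clopper-Pearson interval 15.9 to 17.3) and 0.681% of kept control cells (0.541 to 0.846). The SI share was 24.3 times the control share (19.5 to 30.8), a log2 ratio of 4.61. The ratio moved with the gate: it was 3.97 on the log2 scale with limits of 2 UMIs (control share 1.26%), 5.27 with limits of 5 and 5.42 with cells thinned first (control share 0.257%). The gate passed 3 of 14915 kept cells of the deleted library and 16 of 16329 of the B220lo library, whose kept cells were shallower, with medians of 6832 and 3354 UMIs. Cells with the same Fcer1a and Cpa3 levels but with at least 2 UMIs of Mcpt8 and Prss34, called protease-positive below, numbered 54 in SI (0.447% of kept cells) and 26 in control (0.219%). Of all Fcer1a and Cpa3 cells, 97.4% fell on the low-protease side in SI (96.6 to 98.0) and 75.7% in control (66.5 to 83.5). The protease-positive shares of the 2 libraries were thus nearer to each other than the gated shares. Both gate genes were also detected more often outside the gate in SI. Fcer1a had a UMI in 17.1% of other kept SI cells and 3.68% of other kept control cells, and Cpa3 in 54.4% and 25.6%.

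**Figure D1:**
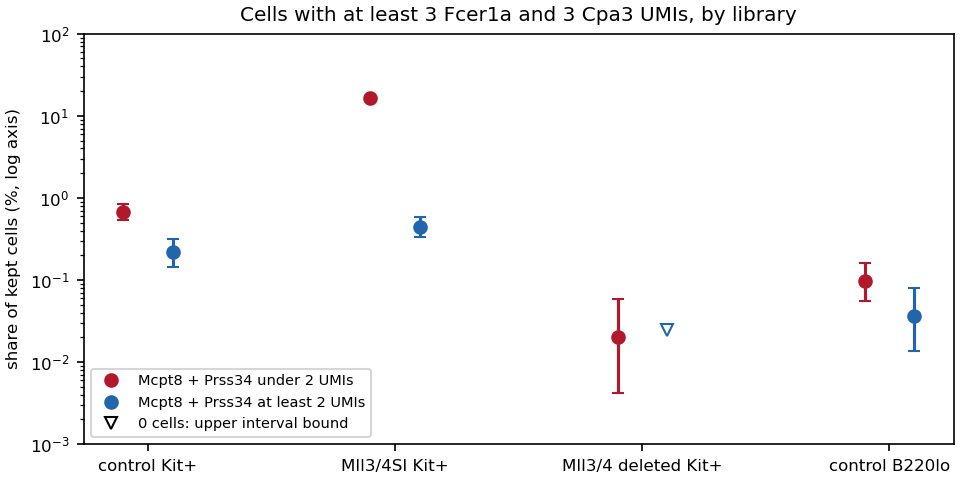
Share of kept cells (%, log axis) with at least 3 Fcer1a and 3 Cpa3 UMIs in each of the 4 libraries, split at 2 UMIs of Mcpt8 plus Prss34; bars are exact 95% intervals. The SI library stands at 16.6% below the protease limit, and the control library at 0.681%.

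Gated SI cells were also well inside the gate. The median gated SI cell held 11 Fcer1a UMIs (quartiles 6 and 21) and 19 Cpa3 UMIs, and the median gated control cell held 5 (quartiles 3 and 7) and 8. In the SI library 249 cells missed the gate with exactly 2 Fcer1a UMIs, 174 passed with exactly 3 and 1829 passed with more. Cells at 2 and at 3 UMIs were alike in Ms4a2, which had a UMI in 35.3% and 35.6% of them, against 58.7% of those above 3. The protease limit cut a thinner edge: 1913 gated SI cells had 0 protease UMIs, 90 had 1, and 20 cells lay just outside with 2. Depth differed across this edge, with medians of 12813, 20836.5 and 23496 UMIs, and 15612 in the 34 cells with more than 2. In the control library 53 cells had 2 Fcer1a UMIs, 23 had 3 and 58 had more, so a larger part of the control cells lay near the limit.

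Whether these are mast cell progenitors was checked against marker genes that the gate did not use. Levels are UMIs of a gene per 1000000 UMIs summed over a group of cells (CPM), and shares given as thinned were taken after thinning each cell to 5000 UMIs, which left out 77 gated SI cells and 4 gated control cells. Counts of cells with a UMI are unthinned. Ms4a2, the FcεRI β chain, stood at 258 CPM in gated SI cells, 28.7 in other SI cells, 275 in gated control cells and 8.45 in other control cells. It had a UMI in 45.9% of thinned gated SI cells, 66.2% of gated control cells and 7.4% of other SI cells. In SI cells of the erythroid kind, which should lack it, the share was 2.10%, at a median depth of 22872 UMIs before thinning. Without thinning, Ms4a2 was found in 56.7% of gated SI cells and 80.2% of gated control cells, so it was not detected in a large part of the gated SI cells.

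Mature granule genes were close to absent. Of the 13 genes of the mast granule list, 4 had 0 UMIs in all 2003 gated SI cells, among them the tryptase Tpsab1 and the protease Mcpt9. The chymase Mcpt4 had 4 UMIs, the tryptase Tpsb2 had 7 and the chymase Cma1 had 229, or 7.63 CPM (6.67 to 8.68), in 15 cells. Granzyme B (Gzmb), also made by mouse mast cells, stood at 38.4 CPM but had UMIs in 75 cells, 3.74% of the gate. The abundant members of that list, the proteoglycan core Srgn at 1942 CPM and cathepsin G (Ctsg) at 1118 CPM, are shared with neutrophil precursors. The adenosine receptor Adora3 stood at 0.333 CPM and Rgs13 had 0 UMIs. Fcer1a and Ms4a2 are shared by mast cells and basophils, and granule proteases come late in mast cells. These markers thus do not settle the name mast-like either way, and the cells are called gated cells here.

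Basophil-list genes outside the gate were mixed. The 12 genes summed to 518 CPM in gated and 440 in other SI cells, and of 4 compared, 1 was called higher (Lmo4, 127 against 48.3 CPM) and 0 lower. Ifitm1 was high in both, at 212 and 228 CPM, while the basophil surface receptor gene Cd200r3 stood at 2.50 CPM and interleukin 4 (Il4) at 0.799 CPM in gated cells. Eosinophil genes were low, and the 10 of them summed to 5.0 CPM, and the peroxidase Epx had 0 UMIs. Mpo, the peroxidase of neutrophil granules, had a UMI in 78.7% of thinned gated SI cells, against 83% of other SI cells and 38.7% of the erythroid kind. The share for neutrophil elastase (Elane), 56.4%, lay nearer to the 41.8% found in cells of the erythroid kind. Mpo and Gata2 were found together in 44.7% of thinned gated SI cells, and the product of their separate shares was 45.5%.

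**Figure D2:**
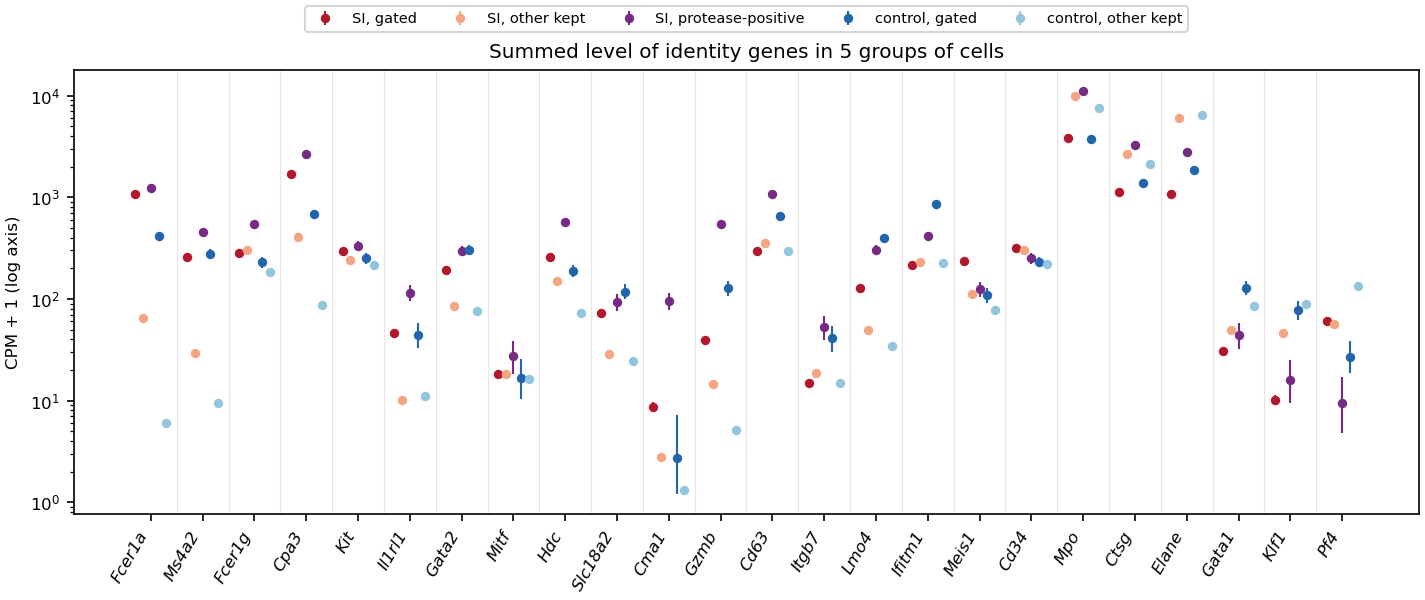
Summed level (CPM + 1, log axis) of identity genes in gated, other and protease-positive SI cells and in gated and other control cells; bars are exact Poisson 95% intervals. Ms4a2 is near 258 CPM in gated SI cells and 275 in gated control cells, while Cma1 stays at 7.63 and 1.74 CPM.

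Set beside the other 10078 kept SI cells, gated cells were higher in Ms4a2, Il1rl1, Slc18a2 and Gata2 and lower in genes of the neutrophil, monocyte and erythroid branches. The lists of mast genes outside the granule list, cytokine receptors, transcription factors and amine genes did not move together. A gene was compared where the mean of both groups was at least 10 CPM, and called where the levels with 1 CPM added differed at least 2-fold. A compared gene under 10 CPM in 1 group met this limit only through the other group, so the limit fixed its direction. Of 8787 genes compared, 87 were called higher (0.99%) and 165 lower (1.88%), and the median log2 ratio over all of them was 0.0028. All 23 gene lists were chosen with earlier results of these data known, so their counts are descriptions and not independent evidence.

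Among receptors, Ms4a2 had a log2 ratio of 3.13 with 1 CPM added and a CPM ratio of 9.01-fold (8.67 to 9.36). Il1rl1, the receptor for interleukin 33, stood at 45.3 against 9.06 CPM, 4.99-fold (4.62 to 5.40). Csf2rb2, the mouse β chain that pairs with the interleukin 3 receptor, stood at 39.9 against 8.19 CPM, though it is a near copy of Csf2rb and reads may be split between them. Il18rap, a chain of the interleukin 18 receptor, stood at 50.3 against 22.9 CPM. Kit, on which all cells were sorted, differed little, at 294 against 243 CPM. Over the 20 cytokine receptor genes, 16 were compared, 3 called higher and 4 lower, with a median log2 ratio of -0.13.

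Among regulators, Gata2 stood at 190 CPM in gated against 83.5 in other SI cells (2.27-fold, 2.20 to 2.34) and Ikzf2 at 228 against 106 CPM. Gata1, a factor of the erythroid, mast and megakaryocyte branches, went the other way, at 29.9 against 48.2 CPM. Mitf, needed for mast cell maturation, was level at 17.4 CPM in both. Of 18 transcription factor genes compared, 2 were called higher and 1 lower. Downstream of FcεRI, the kinase gene Fyn stood at 89.9 against 41.4 CPM and the adaptor gene Lat2 at 150 against 82.8 CPM, while the kinase genes Lyn (74.4 against 80.0 CPM) and Syk (97.9 against 90.6 CPM) were near level. The 14 compared genes of FcεRI signalling had a median log2 ratio of 0.08, with 1 called.

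For mediator genes, the vesicular amine transporter Slc18a2 stood at 71.1 against 28.0 CPM and the histamine enzyme Hdc at 260 against 150 CPM. Hdc was uneven between cells: it had a UMI in 37.5% of thinned gated SI cells, and in 71.7% of SI cells of the neutrophil kind. The cytokine gene Il6 stood at 18.4 against 1.92 CPM, 9.59-fold (8.26 to 11.2), from 552 UMIs spread over 381 gated cells. Il13 had 2 UMIs in gated SI cells. Over the 14 other mast genes, 9 were compared, 3 called higher (Ms4a2, Il1rl1 and Slc18a2) and 0 lower, with a median log2 ratio of 0.28. Of these 9, 5 had a log2 ratio above 0 and 4 below 0. Of 4 mast granule genes compared, Gzmb was called higher and Ctsg lower, and the list summed to 3124 CPM in gated and 4272 in other SI cells.

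The rest of the highest ratios belonged to genes of other kinds. These were the chemokine-binding receptor Ackr1 (25.3 against 3.2 CPM), Pakap (54.1 against 8.32), the transcription factor Sox5 (83.7 against 15.7), the sialyltransferase St8sia6 (155 against 32.9), Clca3a1 (32.7 against 6.44) and Ltbp1 (51.2 against 10.7), which binds latent TGF-β. St8sia6 had a UMI in 1488 of the 2003 gated SI cells and Ackr1 in 420. Jchain, the immunoglobulin joining chain, also met the rule at 36.1 against 6.91 CPM. Of its 1083 UMIs 99.3% came from 1 cell, and without that cell the gated level was 0.267 CPM.

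Genes of other lineages were lower. Of 12 compared neutrophil genes, 8 were called lower (median log2 ratio -1.43), among them Elane at 1074 against 5952 CPM and Mpo at 3856 against 9873 CPM. All 8 compared monocyte and dendritic cell genes were called lower, with the clotting factor gene F13a1 at 14.6 against 84.0 CPM. All 8 compared erythroid genes were called lower (median -2.22), with the globin gene Hbb-bs at 4.60 against 72.2 CPM and the carbonic anhydrase gene Car1 at 102 against 629 CPM. The other genes named on the lower side were Ly6c2 (111 against 789 CPM), Tifab (6.73 against 41.9), Ces2g (10.9 against 62.0), Aqp1 (7.0 against 40.6), C3 (7.26 against 41.3) and Slpi (19.8 against 104). Hbb-bs and Aqp1 of the erythroid list, Tifab and C3 were under 10 CPM in gated cells, so the limit fixed their direction.

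Stem and multipotent genes were mixed. Of 12 genes 11 were compared, 1 called higher and 3 lower. Meis1 stood at 237 against 110 CPM and Adgrg1 at 757 against 391 CPM, and Cd34 was level at 314 against 305 CPM. Flt3, a receptor of lymphoid-primed progenitors, was lower at 18.7 against 39.7 CPM, and Mecom, a stem cell factor, at 9.66 against 27.0 CPM. The integrin genes Itga2b and Itgb3, which pair on megakaryocytes and are also found on mast cells, stood at 141 against 62.4 CPM and 71.1 against 26.8 CPM.

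Few genes of the remaining lists were called. Of 13 compared adhesion genes 2 were called higher and 1 lower, and of 5 amine and eicosanoid genes 1 was higher and 0 lower. Of 9 heat-shock and early response genes 0 were called, with a median log2 ratio of 0.53. All 9 compared genes of the MLL complexes, Kmt2c, Kmt2d and their partners, lay within 2-fold. Survival genes gave 7 compared and 1 lower, Bcl2 (27.8 against 62.1 CPM). B-lineage genes summed to 41.5 CPM in gated and 64.0 in other SI cells, and T and NK cell genes to 52.2 and 150 CPM. Without cells of high doublet score, 104 of 8778 genes were called higher (1.18%) and 206 lower (2.35%). The list counts given so far that changed were 7 of 7 erythroid genes lower, 15 cytokine receptors compared with 3 higher and 3 lower, and 2 stem and multipotent genes higher in place of 1.

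The gated SI cells were not uniform. Clustered on their own they fell into 8 groups, numbered by size and described by gene list levels without names, since cluster genes are used to form the groups. Cluster 0 (637 cells, 31.8%) had low Mpo (602 CPM), low G2/M genes (478 CPM summed) and the most Pf4 (128 CPM), a platelet chemokine gene. Cluster 1 (552 cells, 27.6%) had the most G2/M RNA, 4969 CPM. Cluster 2 (357 cells, 17.8%) had Mpo at 5595 CPM and Hdc at 522 CPM, with Elane at 272 CPM and G2/M genes at 741 CPM. Cluster 5 (70 cells) was led by Slc24a3 and Lrmda, genes outside the lists, and had the lowest median depth, 7235 UMIs.

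Cluster 4 (76 cells, 3.79%) held the highest level of the granule gene Gzmb, 1298 CPM from 40 cells (1083 CPM without its top cell), against 30.5 CPM or less in the other clusters. Cma1 rested on single cells: cluster 4 had 135 CPM from 7 cells, and 40.2 CPM without the top one. Cluster 6 had 48.4 CPM of Cma1, of which 72 of 73 UMIs were in 1 cell, and cluster 3 had 10.0 CPM, with 60 of 61 UMIs in 1 cell. In cluster 4 Ms4a2 was 752 CPM, with a UMI in 92.1% of cells without thinning (56.7% over the whole gate). Kit was 668 CPM there, Gata2 501 CPM, Cpa3 5037 CPM and the granule membrane gene Cd63 1611 CPM. Itgb7, the integrin chain by which mast cell progenitors home to the gut, stood at 163 CPM there and at 10.5 CPM in the rest of the gate. Basophil-list genes outside the gate were also highest in cluster 4, at 1449 CPM summed, with cluster 2 next at 846 CPM. Of that list, the steroid enzyme gene Cyp11a1 stood at 93.1 CPM in cluster 4 and at 1.499 CPM in the rest of the gate. The 20 G2/M genes in cluster 4 summed to 330 CPM and the 20 S phase genes to 1447 CPM. Both sums were the lowest of the 8 clusters. Cluster 4 had 0 cells with a doublet score of 0.25 or more.

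Clusters 3, 6 and 7 carried genes of another lineage together with high doublet scores. Cluster 3 (242 cells) held neutrophil genes at 22962 CPM summed, with Elane at 4121 CPM, a median depth of 24987 UMIs and 35.5% of cells at a doublet score of 0.25 or more. Cluster 6 (59 cells) held Car1 at 1826 CPM, with 47.5% of cells at that score. Cluster 7 (10 cells) held Lyz2, a macrophage and neutrophil lysozyme gene, at 8987 CPM, with 80.0% of cells at that score. Whether these are doublets was not tested. Without these 3 clusters, 1692 gated SI cells remained (14.4% of the kept SI cells left), and neutrophil genes against other SI cells came to 10 of 12 called lower (2.55% of all 8791 genes compared were), with a median log2 ratio of -4.66. Elane was then 195 CPM, Mpo 2168 CPM, Car1 12.1 CPM and Ms4a2 274 CPM. The 3 clusters were picked for genes of other lineages, so lower neutrophil genes, Elane, Mpo and Car1 without them followed from that choice.

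**Figure D3:**
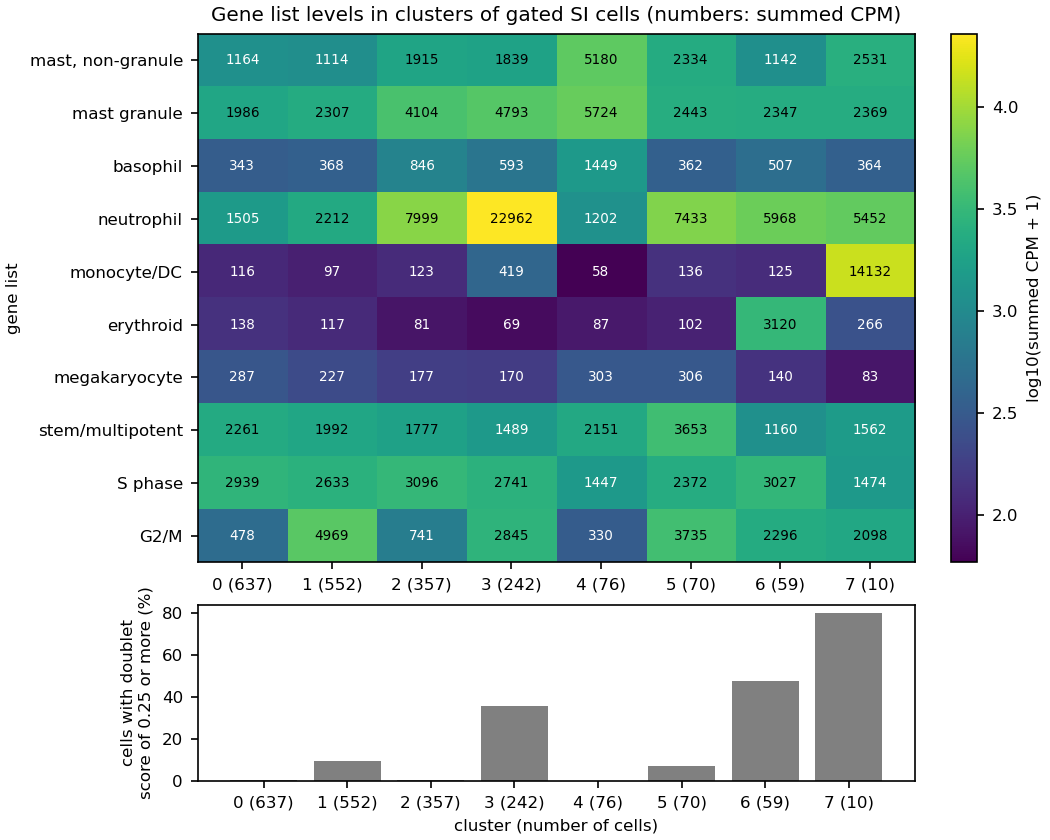
Summed CPM of 10 gene lists (colour, log10 scale) in the 8 clusters of gated SI cells, above the share of cells (%) in each with a doublet score of 0.25 or more. Clusters 3, 6 and 7 combine neutrophil, erythroid or monocyte genes with shares of 35.5%, 47.5% and 80.0%.

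The gated SI cells were cycling to about the extent of their neighbours. The 20 S phase genes summed to 2774 CPM in gated and 2726 in other SI cells, a log2 ratio of 0.025. The 20 G2/M genes summed to 2621 CPM in gated and 2225 in other SI cells, a log2 ratio of 0.24 (0.091 with cells thinned before the gate). All 20 had a ratio above 0 while 0 were called at 2-fold. After thinning, the median gated SI cell had 12 S phase UMIs (quartiles 6 and 19.8) and 5 G2/M UMIs (1 and 18), and the median other SI cell had 12 (7 and 18) and 4 (1 and 15). Mki67, a proliferation marker, had a UMI in 49.3% of gated SI cells and 46.9% of others, and the topoisomerase gene Top2a in 55.4% and 53.2%.

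Gated control cells held more G2/M RNA. Their S phase genes summed to 2757 CPM, near the 2774 CPM of gated SI cells. Their G2/M genes summed to 3092 CPM, giving a log2 ratio of SI over control of -0.24. This ratio moved with the gate, to -0.14 with limits of 2 UMIs, -0.54 with limits of 5 and -0.62 with cells thinned first. The median gated control cell had 11 G2/M UMIs after thinning (quartiles 4 and 22), against 5 in gated SI cells and 6 in other control cells. Mki67 had a UMI in 64.9% of the 77 thinned gated control cells (53.2 to 75.5) and Top2a in 76.6% (65.6 to 85.5). Of the 20 G2/M genes, 15 had a ratio below 0 and 0 were called at 2-fold. Of 14 compared genes of the G1 to S step, 1 was called higher in SI (Ccne2, 14.7 against 6.08 CPM) and 0 lower (1 of 13 higher without cells of high doublet score), with a median log2 ratio of -0.0049. Under 2-fold, Cdk6 stood at 616 CPM in gated SI and 746 in gated control cells, Ccnd2 at 54.7 and 79.0 CPM, and the inhibitor gene Cdkn1a at 29.4 and 14.8 CPM.

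**Figure D4:**
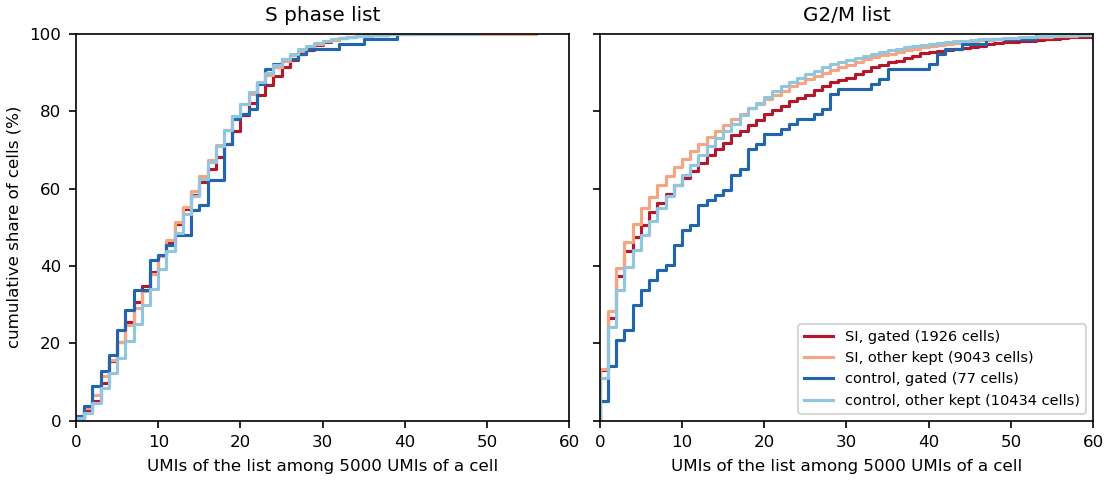
Cumulative share of cells (%) by the number of S phase (left) and G2/M (right) list UMIs among 5000 UMIs of a cell, for gated and other cells of both libraries. The S phase curves lie close together, and the G2/M curve of the 77 gated control cells lies to the right, with a median of 11 UMIs against 5 in gated SI cells.

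Set beside the 81 gated control cells, gated SI cells had levels of Ms4a2, Kit and Il1rl1 close to theirs when summed over cells. The basophil-list genes Lmo4 and Ifitm1 were lower in gated SI cells. Of 8765 genes compared, 196 were called higher (2.24%) and 241 lower (2.75%), with a median log2 ratio of 0.0043. The control side rests on 81 cells, so its levels are the less precise. Ms4a2 gave 0.938-fold (0.838 to 1.05), though the median gated cell held 1 Ms4a2 UMI in SI and 3 in control. Il1rl1 gave 1.04-fold (0.787 to 1.41) and Kit 1.18-fold (1.05 to 1.33). Mpo summed to 3856 and 3711 CPM, and over the 1692 gated SI cells outside clusters 3, 6 and 7 the SI level was 2168 CPM. The median gated cell held 8 Mpo UMIs in SI and 22 in control, and thinned detection was 78.7% and 89.6%. Fcer1a and Cpa3 themselves stood at 1065 and 413 CPM and at 1672 and 681 CPM.

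Basophil-list genes outside the gate summed to 518 CPM in gated SI and 1520 CPM in gated control cells, and of 6 compared, 4 were called lower and 0 higher. The transcription regulator gene Lmo4 stood at 127 against 398 CPM, with a UMI in 1053 of 2003 SI and 70 of 81 control cells. Ifitm1, an interferon-induced membrane gene, stood at 212 against 862 CPM, Csf1 at 7.99 against 28.6 CPM and the steroid enzyme gene Cyp11a1 at 3.56 against 25.2 CPM. Csf1 and Cyp11a1 met the 10 CPM limit only through the control cells, so the limit fixed their direction. In other kept cells the libraries were closer for Lmo4 (48.3 against 33.2 CPM) and Ifitm1 (228 against 227 CPM). A single protease UMI was found in 18 of 81 control cells and 90 of 2003 SI cells. With the limit set at 0 protease UMIs, leaving 63 control cells, the log2 ratios were -1.66 for Lmo4 and -2.15 for Ifitm1, against -1.64 and -2.02 with those cells.

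Eosinophil genes gave 3 compared and 3 lower. The whole list summed to 5.0 CPM in gated SI cells. These 3 thus met the 10 CPM limit only through the control cells and could only be lower. Siglecf, the eosinophil lectin gene, had a UMI in 85 of 2003 SI cells and 52 of 81 control cells, at 3.30 against 79.9 CPM. Prg2, the major basic protein gene, came from 1 control cell that held all 236 of its UMIs, so its ratio describes that cell. Outside the eosinophil list, the lipoxygenase gene Alox5, which starts leukotriene synthesis, stood at 10.2 against 74.6 CPM (189 of 2003 and 47 of 81 cells). Of mast genes, Cd63 stood at 293 against 651 CPM, Itgb7 at 13.9 against 39.9 CPM and Gzmb at 38.4 against 126 CPM, the last from 10 control cells. Over the 14 other mast genes 2 of 9 compared were called lower and 0 higher, and 3 of 9 lower without cells of high doublet score.

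Apoe, an apolipoprotein gene expressed in several marrow progenitors, was found in nearly every gated control cell: 80 of 81 gated control cells had a UMI, and 389 of 2003 gated SI cells. Its levels were 1141 and 65.1 CPM, 17.5-fold lower in SI (16.3 to 18.8). In other kept cells it was lower in SI as well, at 180 against 365 CPM. Nkg7, a granule membrane gene, had a UMI in 76 of 81 and 485 of 2003 cells (450 against 51.4 CPM), and Csrp3 in 57 of 81 and 243 of 2003 (226 against 25.4 CPM). Csrp3 did not differ in other kept cells, 13.2 in control and 13 CPM in SI, while Nkg7 did, 434 against 143 CPM. The other genes named as lower were Galnt6 (125 against 13.6 CPM), Mdga1 (89.4 against 9.53), Sdsl (109 against 14.2), Ccl9 (122 against 16.8) and the carbonic anhydrase gene Car2 (343 against 57.9).

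Among regulators Gata1, the factor shared with the erythroid branch, was lower. It stood at 29.9 CPM in gated SI and 128 in gated control cells, 4.27-fold lower (3.56 to 5.09), and had a UMI in 9.92% and 42.9% of thinned cells. Gata2 stood at 190 against 303 CPM. The erythroid factor gene Klf1 stood at 9.13 against 76.4 CPM, and the adaptor gene Lat at 8.49 against 51.2 CPM. Bcl2, a survival gene, stood at 27.8 against 126 CPM, and Bcl2l1 went the other way at 19.6 against 9.55 CPM. Outside the gate the 12 erythroid genes also summed lower in SI, at 1187 CPM in other SI and 2390 CPM in other control cells. Of 7 erythroid genes compared between gated cells, 6 were called lower in SI. Without cells of high doublet score 2 of 4 were, and the list sum in gated control cells was 396 CPM against 1247 with them. Klf1 then stood at 4.56 against 56.6 CPM and Car2 at 41.2 against 181 CPM. Car1 stood at 49.9 in SI and 45.5 CPM in control, against 102 and 576 CPM with them. Gata1 without such cells was 25.8 against 124 CPM, and Apoe 50.1 against 1472 CPM.

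Neutrophil genes turned on which cells were left out. Of 12 compared, 1 was called higher in gated SI cells and 3 lower (median log2 ratio -0.69). Without cells of high doublet score in either library, 6 of 10 were higher and 1 lower, beside 2.77% and 3.32% of all genes compared in that setting, and S100a8 moved from -1.20 to 4.69, with 4 of 434 control UMIs left. Without clusters 3, 6 and 7 in SI alone, 1 of 12 was higher and 9 lower, beside 2.66% and 3.40% of all genes. No direction is given for this list.

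On the higher side, several genes near 0 in gated control cells were broadly detected in gated SI cells. Serpina3i, a serine protease inhibitor gene, had 5024 UMIs in 1540 of 2003 gated SI cells and 0 in gated control cells, at least 64.3-fold higher against a floor of 3 counts over the control group. It was high in the other SI cells too (89.7 CPM against 0.0185 in other control cells), and its family holds close copies among which reads may be split. Pakap (54.1 against 0 CPM, at least 20.8-fold), Cryab (25.5 against 0, at least 9.79-fold) and Itgb6 (25.1 against 0, at least 9.66-fold) had 0 UMIs in gated control cells. Itgb3 had a UMI in 1087 of 2003 SI cells and 5 of 81 control cells, at 71.1 and 4.34 CPM, 16.4-fold (7.01 to 50.5). Ltbp1 (51.2 against 1.74 CPM), Sgip1 (57.8 against 1.74), Cnrip1 (36.6 against 0.868) and Igfbp7 (80.4 against 6.08) completed the named genes besides Jchain. All genes named in this paragraph met the 10 CPM limit only through gated SI cells, so they could only be higher. Apart from Serpina3i, their levels in other control cells are not given. The ratios thus do not show what part is shared by the whole SI library.

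Stem cell genes were higher in gated SI cells for 2 of 10 compared and lower for 2, and higher for 1 without cells of high doublet score. Meis1 stood at 237 against 108 CPM and Hlf at 41.7 against 13 CPM, whereas Hoxa9 (15 against 38.2 CPM) and Mecom (9.66 against 40.8 CPM) were lower. Of 14 cytokine receptors compared, 3 were called higher and 2 lower (median log2 ratio 0.09), and 3 and 1 of 13 without cells of high doublet score. Il18rap (50.3 against 7.81 CPM), Csf3r (49.9 against 19.1 CPM) and Csf2rb2 (39.9 against 18.2 CPM) were the higher ones. The erythropoietin receptor gene Epor (6.66 against 19.96 CPM) was among the lower ones. The heat-shock genes Hspa1a (32.8 against 3.47 CPM) and Hspa1b (48.6 against 3.47 CPM), near copies of each other, were higher in gated SI cells and also in other SI cells (21.9 against 3.42 and 33.4 against 6.37 CPM). Their part in the other differences was not tested. The targeted genes Kmt2c (62.4 and 62.5 CPM) and Kmt2d (19.0 and 33.9 CPM) were detected in both gated groups, and a 5′ count does not show which allele a molecule came from.

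**Figure D5:**
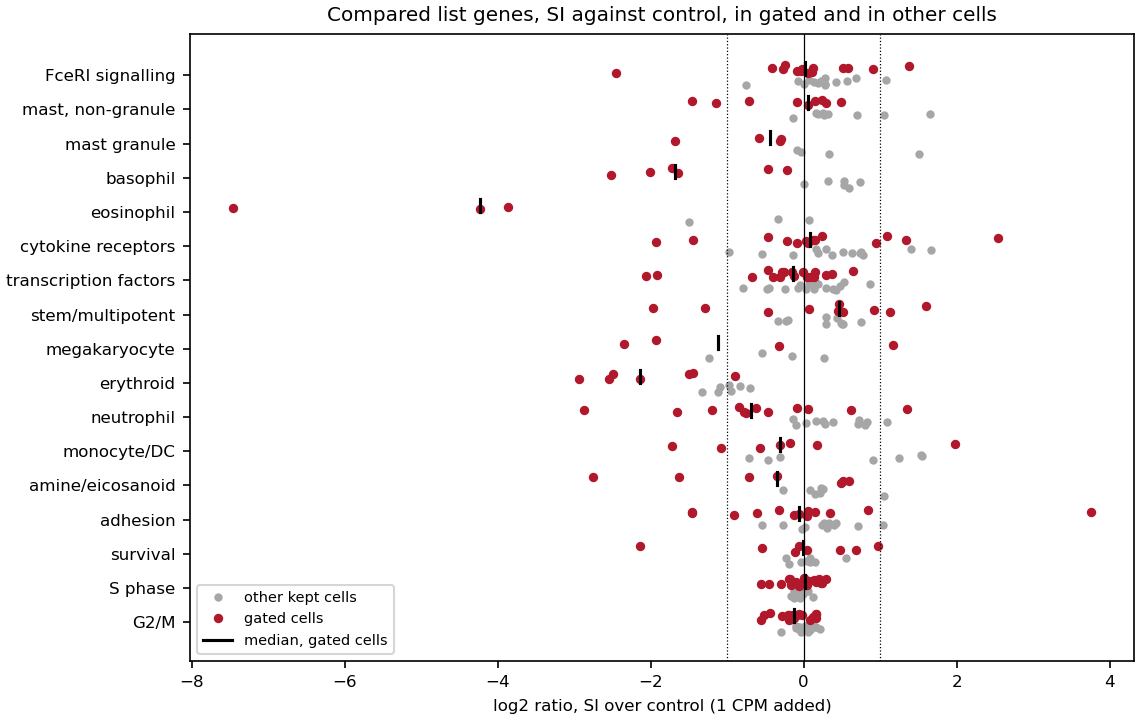
Log2 ratio of SI over control (1 CPM added) for the compared genes of 17 lists, in gated cells (red, black bar at the median) and, for the same genes, in other kept cells (grey); dotted lines mark 2-fold. Basophil genes have a median of -1.68 in gated cells, and the S phase and G2/M genes lie near 0.

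The 54 protease-positive SI cells met the same Fcer1a and Cpa3 limits, and they had more RNA of several mast and basophil genes. Of 8723 genes compared, 120 were called higher in gated cells (1.38%) and 161 lower (1.85%), with a median log2 ratio of 0.015. The protease-positive cells were deeper, with a median of 18694.5 UMIs against 13032. Ms4a2 stood at 258 CPM in gated and 455 in protease-positive cells, Hdc at 260 and 573 CPM, Il1rl1 at 45.3 and 114 CPM and Cd63 at 293 and 1083 CPM. Gzmb stood at 38.4 and 539 CPM, Cyp11a1 at 3.56 and 73.0 CPM, and Mpo at 3856 and 11035 CPM. Of 5 mast granule genes compared, 4 were called lower in gated cells and 0 higher (median log2 ratio -1.69). Cma1 is among the 4 and rests mostly on 1 protease-positive cell, as given below. Over the 14 other mast genes 4 of 9 compared were called lower in gated cells and 0 higher, and over the basophil list 3 of 7 lower and 0 higher. Without cells of high doublet score, where 2.13% of all genes were called higher and 2.21% lower, these were 5 of 9 and 4 of 7, and erythroid genes went from 1 to 3 of 5 called lower.

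Cma1 was 7.63 CPM in gated and 93.6 CPM in protease-positive cells, but 87.0% of the latter came from 1 of the 54 cells, and without it the level was 12.2 CPM. Prg2 was set by 1 cell with 256 of 257 UMIs. The Fcγ receptor gene Fcgr3 (24.8 against 139 CPM), Csrp3 (25.4 against 121), Fam129a (48.6 against 172), Cdh1 (48.5 against 163), Clec12a (28.7 against 96.4) and Apoe (65.1 against 215) were the other genes named as lower in gated cells. On the higher side S100a9, Ngp, Camp and S100a8, genes of the neutrophil list, came from few cells: Camp had 4563 UMIs in 43 gated cells, 34.9% of them in 1. Without clusters 3, 6 and 7 their log2 ratios were 0.95, -0.18, -0.59 and 0.51, against 5.69, 5.45, 5.33 and 4.63 with them.

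Higher genes that did not depend on those clusters were Pf4 (59.5 against 8.42 CPM, and 71.6 without them), the cation channel gene Trpc6 (33.5 against 4.68) and Slc16a11 (56.7 against 11.2). Olfr417 and Cd74 met the rule as well, at log2 ratios of 3.65 and 3.09, and Cd74 was 0.68 without the clusters. Hlf stood at 41.7 against 12.2 CPM and Meis1 at 237 against 123 CPM. The S phase list summed to 2774 CPM in gated and 2325 in protease-positive cells, and the G2/M list to 2621 and 2684 CPM.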

How the data were processed

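The matrices deposited by the authors hold raw UMI counts (genes by barcodes) from Cell Ranger 7.1.0, per the submitters' processing notes, which also name mm10. Barcodes had been called as cells before deposit. No column of another sample was present. Kept cells were gated on raw counts. UMIs were summed per group and given as CPM with exact Poisson intervals; ratios added 1 CPM, and fold intervals are exact conditional ones. No test was possible with 1 library per group. The calculation was tested on simulated data. Scrublet (scanpy 1.11.5, expected share 8%) marked 1 SI cell at its own threshold of 0.761, so it had not worked there, and a fixed score of 0.25 was used and cells were kept in the main values. Cells of the erythroid and neutrophil kinds served as background. Gated SI cells were clustered on 2000 variable genes, 20 components, 15 neighbours and Leiden resolution 0.5 (leidenalg 0.10.2). Positions come from GENCODE M21 (GRCm38), which held 32158 of the 32285 gene identifiers.

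The members, the gate and all gene lists were chosen with earlier results of these data known. Named genes are the 10 highest and 10 lowest log2 ratios per comparison with at least 100 UMIs in the higher group, without gate genes, receptor segments, mt-, Rpl, Rps, numbered Gm, Rik, Y-linked and Xist genes, plus genes of the lists.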

Additional observations from a re-analysis of the deposited data

Results flagged for a closer look

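For 7 named genes gated cells lay on opposite sides of the other kept cells in the 2 libraries, by at least 2-fold in each. This difference was not tested, since each group is 1 library. Log2 ratios of gated over other cells were, in SI and then in control, 1.37 and -1.35 for Itgb3 and 1.39 and -1.45 for Cnrip1. Both were thus above the rest in SI and below it in control. Their control side rests on few UMIs in gated cells, and the 10 CPM limit was not applied to these ratios. The reverse direction held for Apoe (-1.46 and 1.64), Galnt6 (-1.35 and 1.06) and Mdga1 (-1.12 and 1.72). Jchain (2.23 and -2.30) and Prg2 (-1.90 and 5.63) met the same condition, and each rests on 1 cell: in SI for Jchain and in control for Prg2.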

How the results depend on the processing

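The higher share in SI was found under every alternative run. It was 19.7% in SI and 1.26% in control (log2 ratio 3.97) with Fcer1a and Cpa3 at 2 UMIs, 12.6% and 0.328% (5.27) at 5 UMIs, and 11.0% and 0.257% (5.42) with cells thinned before gating. It was 15.8% and 0.530% at 0 protease UMIs, 15.8% in SI without high doublet scores, and 14.4% without clusters 3, 6 and 7, an alternative added after seeing the data. Counts called higher and lower were, with 10 CPM added, 52 and 104 (other SI cells), 114 and 131 (control) and 37 and 80 (protease-positive). Without a CPM minimum they were 159 and 447, 847 and 781, and 829 and 512. With cells thinned before gating they were 978 and 782 against control and 1133 and 1080 against protease-positive cells. At 5 UMIs, 334 genes were higher against control. Against protease-positive cells, 185 were higher without high doublet scores, 182 without ribosomal and mitochondrial genes, and 185 (with 309 lower) by mean per-cell CPM.

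The S phase ratio to other SI cells was 0.0092 at 2 UMIs, 0.055 at 5, 0.014 at 0 protease UMIs, 0.043 without ribosomal and mitochondrial genes and 0.064 by mean per-cell CPM. Its ratio to control changed sign in 3 alternatives: -0.0056 at 2 UMIs, -0.070 at 0 protease UMIs and -0.0035 without ribosomal and mitochondrial genes. It was 0.12 at 5 UMIs and 0.18 thinned. The G2/M ratio to other SI cells was 0.21 at 2 UMIs, 0.26 at 5, 0.091 thinned, 0.25 without ribosomal and mitochondrial genes and 0.22 without the clusters. To control it was -0.14 at 2 UMIs, -0.54 at 5, -0.17 at 0 protease UMIs, -0.62 thinned and -0.42 by mean per-cell CPM. Leiden resolution 1.0 gave 16 clusters, and Mki67 had a UMI in 31.7% of gated SI cells at 2000 UMIs.

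Signs of named genes that changed: against other SI cells Jchain (-2.92 thinned, -2.54 without the clusters); against control Car1 (0.13) and S100a8 (4.69) without high doublet scores, S100a8 (1.09), F13a1 (0.22), C3 (2.11) and Slpi (3.02) thinned, Tifab (0.49), F13a1 (1.12), C3 (0.36) and Clec12a (0.60) at 5 UMIs, Pf4 (-0.55) and Cma1 (-0.19) at 2 UMIs, Cd74 (-0.43) without the clusters; against protease-positive cells Ly6c2 (0.27), Car1 (1.66), Tifab (1.99), Prg2 (0.22) and Siglecf (1.93) thinned, Ngp (-0.18) and Camp (-0.59) without the clusters. The causes were not tested. The control side held 81 cells, and 27 with cells thinned before gating, so its levels are the less precise. No paired analysis was possible because each group is 1 library.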
